A study of Mus musculus with 12 samples.

Results

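Replication-dependent histone genes were examined in T cells from the pancreatic islets of mice. Members were all genes of the feature list whose symbols start with Hist1h, Hist2h or Hist4h, 65 of 31053 genes, and each was taken by symbol and not by its level. The gene set itself was chosen with earlier results of these data known. Of these, 63 had at least 1 UMI (unique molecular identifier, a captured RNA molecule). Hist1h2ba and Hist1h2aa had none, which allows up to 0.0228 counts per 1000000 UMIs (CPM) over the 4 libraries. The members comprised 6 genes of the linker histone H1 and 17, 17, 12 and 13 genes of the core histones H2A, H2B, H3 and H4.

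Core histones form the octamer around which DNA is wrapped into a nucleosome, and H1 binds the linker DNA between nucleosomes. The replication-dependent genes are switched on in S phase, when new DNA has to be packed, and stand in clusters in which members of the families alternate. Their mRNAs are usually without introns and most end in a conserved stem-loop bound by SLBP in place of a poly(A) tail, which is the end from which the library kit used here primes. In T cells they are a known sign of division, since resting lymphocytes make little new histone.

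The cells were live TCR+ cells sorted from islets of female NOD mice at 12 weeks of age, before diabetes. NOD is an inbred strain with spontaneous autoimmune diabetes. All groups share strain, sex and age, no agent was given, and every comparison below is between cells of the same 4 libraries. For each of the 4 biological replicates, an mRNA library with antibody tag counts (CD62L, CD11a, CD4 and a PE tag read as CD8b) and a T cell receptor library were made with a 10x 5′ kit. Whether a replicate is 1 mouse or a pool is not stated, so the p-values measure the spread between these 4 samples.

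CD8 cells were barcodes with fewer than 20 antibody counts for CD4 and at least 2 UMIs of Cd8a and Cd8b1 together. CD4 conventional cells had at least 40 CD4 counts, no UMI of Cd8a, Cd8b1 or Foxp3, and regulatory T cells (Treg) were the same with at least 1 Foxp3 UMI. A barcode was called cycling with 2 or more UMIs over Mki67, Top2a, Birc5, Cdk1 and Ccnb2, genes of late S phase to mitosis. Barcodes with fewer than 20 CD11a counts and no receptor contig were left out of the 3 populations and are described at the end. CD11a is an integrin chain that T cells carry at their surface.

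The libraries held 4136 to 8718 barcodes and 26861163 to 37834174 RNA UMIs, with 23.5 to 41.9 histone UMIs per 10000. The 3 populations took 3261 to 5019 barcodes of a library, and 15.5% to 16.9% of barcodes fell in no group. All 8 T cell markers were detected in each population, at 47.7 to 56.9 UMIs per 10000 in sum. B cell markers summed to 2.22 to 8.25 and the markers of each of the other cell types checked to at most 3.79, with Krt19 and Hba-a2 at 0. Pairs of libraries shared 36 to 102 barcode sequences, 10 to 36 of them among the T cell populations.

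Promoters of 6 members are shown because they are, within H1, H2B and H4, the members with the highest and the lowest share of UMIs from cycling cells among genes with at least 1000 UMIs. Each is the 250 bases before the annotated start (RefSeq, GRCm38.p6), written 5′ to 3′ on the gene's strand. Of the 65 members, 58 matched a RefSeq promoter. Capitals mark 4 motifs, in the letters given here or their reverse complement, each counted on its own even where matches overlap. CCAAT is a common promoter box and TATAAA the core of the TATA box. ATTTGCAT is the octamer known from H2B promoters. AAACACA is known from H1 promoters.
Hist1h1b, chr13:21780626-21780875, minus strand: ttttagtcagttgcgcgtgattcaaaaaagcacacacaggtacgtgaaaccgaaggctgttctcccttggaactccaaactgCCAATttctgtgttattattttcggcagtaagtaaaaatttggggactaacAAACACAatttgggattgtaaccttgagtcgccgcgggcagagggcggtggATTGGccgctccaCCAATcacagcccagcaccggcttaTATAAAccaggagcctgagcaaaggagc
Hist1h1c, chr13:23738557-23738806, plus strand: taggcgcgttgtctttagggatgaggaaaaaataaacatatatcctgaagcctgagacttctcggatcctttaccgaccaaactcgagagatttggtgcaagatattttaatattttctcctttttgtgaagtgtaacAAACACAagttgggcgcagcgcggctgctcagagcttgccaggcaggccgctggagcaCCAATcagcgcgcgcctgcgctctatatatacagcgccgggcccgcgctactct
Hist1h2bk, chr13:22035571-22035820, plus strand: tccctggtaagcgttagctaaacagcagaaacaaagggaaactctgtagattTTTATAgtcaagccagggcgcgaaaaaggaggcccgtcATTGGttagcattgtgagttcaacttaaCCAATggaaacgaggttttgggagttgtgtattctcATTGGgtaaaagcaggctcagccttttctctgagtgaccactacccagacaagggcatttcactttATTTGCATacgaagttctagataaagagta
Hist2h2bb, chr3:96269450-96269699, plus strand: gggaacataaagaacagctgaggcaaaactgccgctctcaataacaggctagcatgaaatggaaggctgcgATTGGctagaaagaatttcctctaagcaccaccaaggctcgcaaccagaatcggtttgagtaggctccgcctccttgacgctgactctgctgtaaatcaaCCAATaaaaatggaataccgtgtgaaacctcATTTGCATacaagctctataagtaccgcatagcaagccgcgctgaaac
Hist1h4d, chr13:23581318-23581567, plus strand: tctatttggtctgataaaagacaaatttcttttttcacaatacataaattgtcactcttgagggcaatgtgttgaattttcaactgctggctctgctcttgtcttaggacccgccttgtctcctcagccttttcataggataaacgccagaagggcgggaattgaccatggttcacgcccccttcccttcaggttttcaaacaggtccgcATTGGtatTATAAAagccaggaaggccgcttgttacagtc
Hist1h4n, chr13:21832198-21832447, minus strand: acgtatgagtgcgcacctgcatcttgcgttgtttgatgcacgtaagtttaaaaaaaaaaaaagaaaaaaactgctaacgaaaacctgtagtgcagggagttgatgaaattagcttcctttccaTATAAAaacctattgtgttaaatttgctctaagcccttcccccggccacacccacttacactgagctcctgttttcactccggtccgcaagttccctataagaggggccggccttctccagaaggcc

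In Hist1h1b, 98.1% of whose UMIs came from cycling T cells, the window held 3 CCAAT motifs and a TATAAA 28 bases before the start. Hist1h1c, at 65.8%, held 1 CCAAT and no TATAAA, and each of these H1 windows held 1 AAACACA. Among H2B genes, Hist1h2bk (96.7%) had 3 CCAAT motifs and Hist2h2bb (68.4%) had 2, each with 1 ATTTGCAT. Hist1h4d (83.0%) had 1 CCAAT and a TATAAA 32 bases before the start, whereas Hist1h4n (40.6%) had no CCAAT and its TATAAA lay 127 bases before the start. Only the exact letters were counted. Close to the start, Hist1h4n and Hist2h2bb hold TATAAG and Hist1h1c holds TATATA, which are like TATAAA. The low-share genes were thus not shown to lack a TATA box.

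CCAAT was present in 47 of 58 member promoters (81.0%), against 33.8% of 32851 RefSeq promoter windows of the same length. It was in all 6 H1, all 15 H2A and all 15 H2B windows, in 8 of 10 of H3 and in 3 of 12 of H4. TATAAA was in 28 of 58 (48.3%, against 12.4%). ATTTGCAT was in 6 of 15 H2A and 6 of 15 H2B windows and in none of the other families, against 1.6% of all windows, and some H2A and H2B genes stand back to back and share part of a window. AAACACA was in 5 of 6 H1 windows, 2 H2A and 2 H2B windows, against 6.25% of all. These are matches of letters and not measured binding.

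The members held 400871 UMIs over all barcodes of the 4 libraries, and a few genes carried most of them. The H2A gene Hist1h2ap alone had 67368 UMIs (16.8%), and the 12 genes with most UMIs had 68.0%. Those 12 were Hist1h2ap, Hist1h2ae, Hist1h2af, Hist1h2ad, Hist1h2ab and Hist1h2ao of H2A, Hist1h1a, Hist1h1b, Hist1h1c, Hist1h1d and Hist1h1e of H1, and Hist1h4d of H4. H2A made up 42.4% of histone UMIs, H1 27.6%, H4 14.3%, H2B 7.97% and H3 7.72%. UMIs are not divided by transcript length, and no source used here says how reads that fit several near-identical members were counted, so the level of a single member is less certain than a family's sum.

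Cycling barcodes were 7.64% to 11.4% of the T cells of a library and held 26.7% to 33.9% of their UMIs, but 85.5% to 88.3% of their histone UMIs. The 5% of T cell barcodes with most histone UMIs held 83.3% to 86.9% of all histone UMIs and 21.0% to 22.2% of all UMIs. Histone transcripts were thus gathered in few cells in each of the 4 libraries.

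The share of a gene's UMIs from cycling cells differed by family and within it. It was 94.3% for H2A, 86.6% for H1, 83.5% for H3, 82.7% for H2B and 71.0% for H4. Over the 60 members with at least 100 UMIs, 13 had a share of at least 95%, 23 lay between 80% and 95%, 19 between 60% and 80% and 5 below 60%. The 13 were 7 H2A genes (Hist1h2ap, Hist1h2af, Hist1h2ab, Hist1h2ao, Hist1h2ak, Hist1h2ah, Hist1h2ag), Hist1h1a and Hist1h1b of H1, Hist1h2bk of H2B, and Hist1h3b, Hist1h3c and Hist1h3g of H3. The 5 were Hist1h4n and Hist1h4i of H4, Hist2h2aa2 and Hist2h2ab of H2A, and Hist2h2be of H2B, which was lowest at 30.9%. Within H1 the genes ranged from 65.8% to 98.1%, within H2A from 42.6% to 99.1%, within H2B from 30.9% to 96.7%, within H3 from 70.1% to 98.0% and within H4 from 40.6% to 89.8%.

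**Figure D1:**
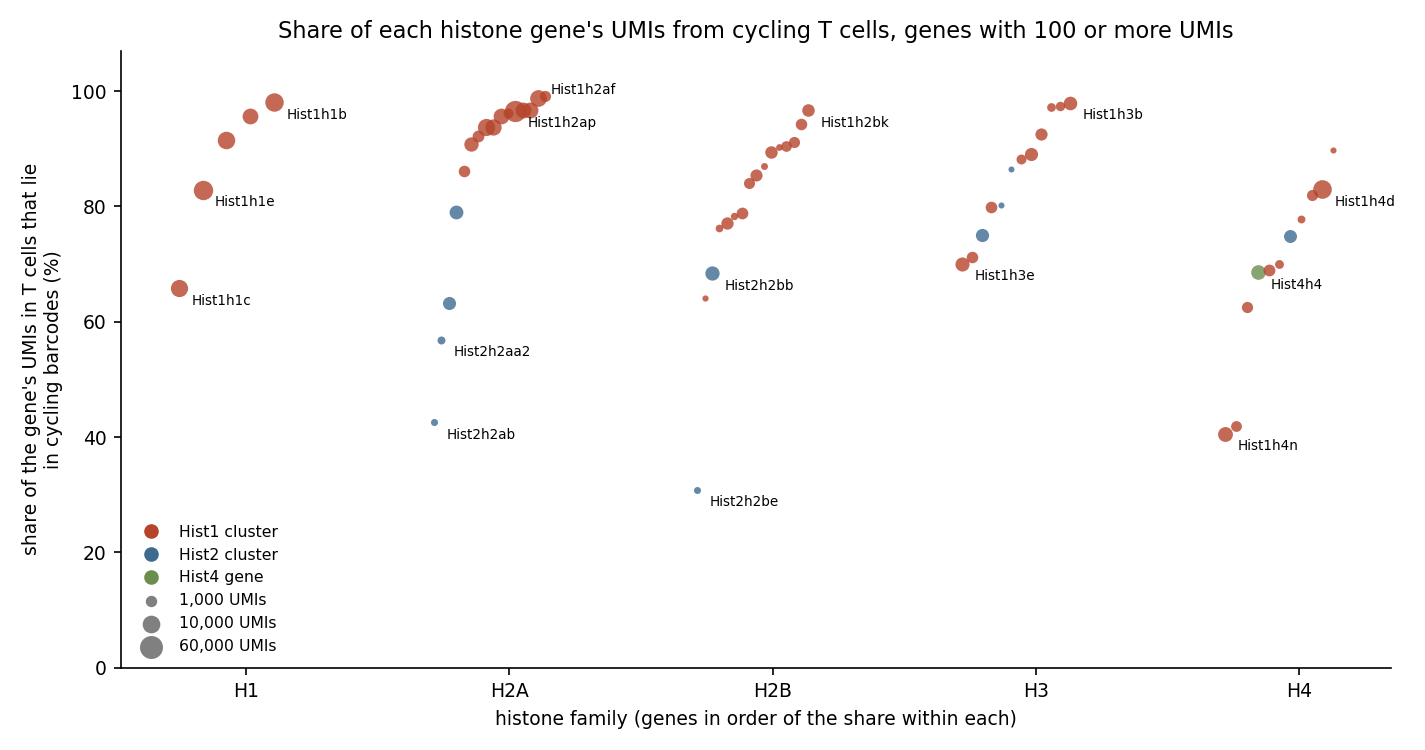
Share of each member's UMIs in T cells that lay in cycling barcodes (y axis, percent), by family (x axis), for the 60 members with at least 100 UMIs. Point area grows with the gene's UMIs and colour gives the gene cluster. Most H2A genes of the Hist1 cluster stand above 90%, while Hist2 genes and several H4 genes stand lower.

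The median of this share differed by position. The 54 Hist1 members, where a RefSeq position was found, stand on chromosome 13 between 21715711 and 23934913 (GRCm38.p6). The 49 of them with at least 100 UMIs had a median share of 89.5% (40.6% to 99.1%). The 10 Hist2 members, on chromosome 3 between 96219885 and 96270192, had a median of 71.7% (30.9% to 86.5%), so the ranges overlapped. Hist4h4, on chromosome 6 from 136803993 to 136804431, had 68.6%. Genes with an annotated span over 800 bases, longer than the usual single short exon, had a median of 77.8% (8 genes), against 86.8% over the 50 shorter genes with at least 100 UMIs. Hist2h2be spans 2667 bases. These are descriptions of genes and not tested.

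Histone transcripts were on average 18.1 times as abundant in cycling as in other CD8 cells (15.3 to 23.4 over the 4 libraries), 12.0 times in CD4 conventional cells (10 to 13.8) and 15.3 times in Treg (9.84 to 24.1). In cycling CD8 cells of replicates 1 to 4 the members together took 119, 87.2, 127 and 68.0 UMIs per 10000, against 5.09, 5.16, 7.66 and 4.43 in the other CD8 cells. CD4 conventional cells had 65.7, 65.2, 62.3 and 45.9 when cycling and 4.89, 4.73, 6.23 and 4.23 otherwise. In Treg the values were 110, 60.9, 94.2 and 42.5 against 4.57, 4.36, 7.02 and 4.32. The groups did not overlap in any population. Replicate 4 was lowest among the cycling cells of each population, and replicate 3 was highest among the cells that were not cycling. Means were 100 ± 27.5 (SD, n = 4 libraries) against 5.58 ± 1.42 for CD8, 59.8 ± 9.36 against 5.02 ± 0.856 for CD4 conventional cells and 76.9 ± 30.8 against 5.07 ± 1.3 for Treg.

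Cycling barcodes were also deeper, with a median of 14185.5 to 18214 UMIs in CD8 cells against 3694.5 to 4801 in the others. After each barcode was thinned to 1500 UMIs the difference stood: cycling CD8 cells held a mean of 18.3, 10.5, 18.0 and 9.41 histone UMIs each, against 0.786, 0.748, 1.13 and 0.658. Thinned CD4 conventional cells held 7.68, 7.37, 7.38 and 6.36 against 0.774, 0.737, 0.933 and 0.634, and thinned Treg 14.5, 8.44, 12.1 and 6.06 against 0.723, 0.725, 0.972 and 0.661. Shallower barcodes were left out of these means.

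H2A differed most between cycling and other cells and H4 least. The mean fold over the 4 libraries in CD8 cells was 44.5 for H2A (37.9 to 54.6), 16.1 for H1 (12.3 to 21.6), 14.7 for H3 (11.4 to 17.9), 14.1 for H2B (9.31 to 19.2) and 6.4 for H4 (3.69 to 9.27). CD4 conventional cells had a mean of 29.8 for H2A (21.8 to 38.8) and 4.34 for H4 (2.91 to 5.48). Treg had 41.1 for H2A (24.6 to 70.8) and 5.03 for H4 (3.12 to 7.51). In each population the lowest H2A fold was above the highest H4 fold.

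The make-up of histone mRNA therefore differed with cycling. H2A was 45.9% ± 4.38 (SD, n = 4) of histone UMIs in cycling CD8 cells and 18.6% ± 1.81 in the others, while H4 was 11.0% ± 2.97 and 31.2% ± 2.95. In cycling CD4 conventional cells H2A was 47.2% and H4 11.1%, against 19.3% and 30.7% in the others. Treg had 46.2% H2A and 8.78% H4 when cycling, and 17.6% and 26.5% otherwise. H1 made up 27.9% in cycling and 31.0% in other CD8 cells, and 29% and 38.4% in Treg.

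Replicate 4 had the lowest H2A, H2B and H4 levels among the cycling cells of each population. Its cycling CD8 cells had 4.47 H4 UMIs per 10000, against 15.2, 10.5 and 16 in replicates 1 to 3, and 27.4 H2A UMIs, against 53.1, 43.5 and 61.9. H2B was 4.7 there against 9.36, 6.45 and 9.01, and H3 5.4 against 8.01, 8.55 and 8.74. Its H1 level, 26.1, lay between those of replicates 1 to 3 (33.3, 18.2 and 31.2). In cycling CD4 conventional cells H4 was 3.32 in replicate 4 and 7.34, 8.72 and 7.95 in the others, and in cycling Treg 2.71 against 9.24, 6.73 and 8.77. What set this library apart was not tested.

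**Figure D2:**
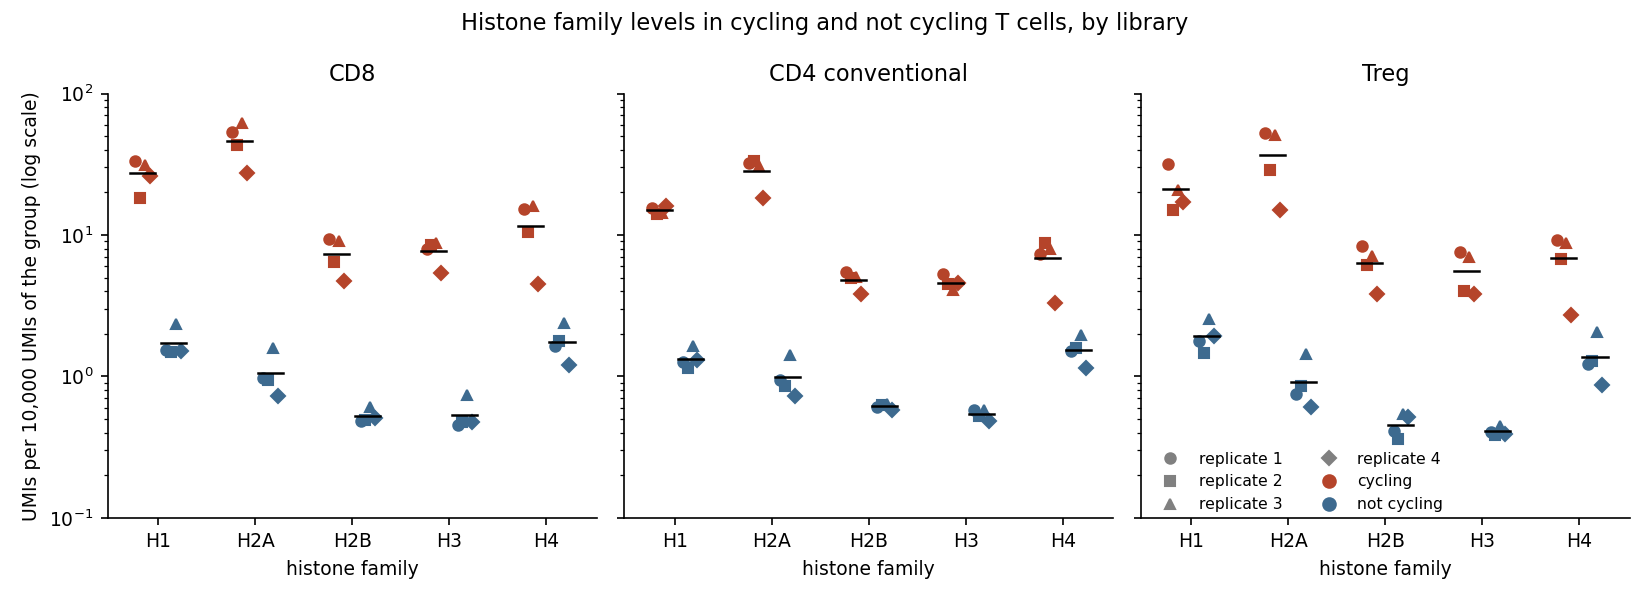
UMIs per 10000 UMIs of the group (log axis) for the 5 histone families in cycling and other cells of 3 T cell populations. Points are the 4 libraries and bars their means. Cycling cells lie above the others in each family and population, with the widest gap in H2A, and replicate 4 is low in H2A and H4 of cycling cells.

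Each gene was then tested on UMI sums per library with edgeR's quasi-likelihood test, in which 32.1% of the 10341 genes tested in CD8 cells were called higher in cycling cells (65.1% in either direction, at a Benjamini-Hochberg adjusted p under 0.05). All 54 members tested were called higher in CD8 cells, with a median log2 fold change of 4.14. CD4 conventional cells gave 54 of 57 higher (background 29.6% higher, 61.2% in either direction) with a median of 3.39, and Treg 48 of 48 (27.4% and 52.0%) with a median of 4.40. No member was called lower. Over all genes tested the medians were -0.03, -0.05 and -0.03. Cycling and other libraries did not overlap for 51, 52 and 45 of these members, and over all genes tested for 55%, 53% and 45.3%. The members not tested had too few UMIs to pass the filter, which keeps a gene through the group where it is high.

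Levels of single genes are given as CPM, the gene's UMIs per 1000000 UMIs of the group. Hist1h2ap, the H2A gene with most UMIs, had 2100, 1830, 3050 and 734 CPM in cycling CD8 cells of replicates 1 to 4, against 22, 26.5, 44.5 and 8.75 in the others. In CD4 conventional cells it had 1260, 1330, 1670 and 531 against 19, 20.6, 42.5 and 10.8. Treg had 1940, 1170, 2860 and 432 against 14.5, 29.5, 63.7 and 7.46. Replicate 4 was lowest and replicate 3 highest in every one of these groups, and cycling and other cells were far from overlapping. The gene rose by a log2 fold change of 6.29 in CD8, 5.74 in CD4 conventional and 5.92 in Treg cells. Hist1h2ab (6.24, 5.69 and 6.30) and Hist1h2ao (6.36, 5.83 and 5.74) rose by like amounts, and Hist1h2ae (5.41, 4.58 and 5.66) and Hist1h2ad (5.36, 4.60 and 5.20) by somewhat less. Hist1h2af had 535, 339, 550 and 176 CPM in cycling CD8 cells and 1.29, 0, 4.04 and 2.82 in the others. Its fitted change, 7.65 in CD8 cells (SE 0.56, adjusted p = 0.0013), rests on 35 UMIs in the group without cycling. For Hist1h2ah, 752 UMIs were counted in cycling CD8 cells and 3 in the others, 441 and 9 in CD4 conventional cells and 270 and 1 in Treg.

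Among the H1 genes, Hist1h1b and Hist1h1c lay at opposite ends. Hist1h1b (RefSeq H1f5) had 839, 429, 856 and 763 CPM in cycling CD8 cells against 3.31, 3.86, 11.0 and 6.78 in the others, and 429, 361, 353 and 412 against 3.36, 1.82, 7.54 and 5.93 in CD4 conventional cells. It rose by 6.92 (SE 0.30, adjusted p = 1.2e-04) in CD8, 6.41 (SE 0.43, adjusted p = 0.00124) in CD4 conventional and 7.09 (SE 0.14, adjusted p = 1.7e-19) in Treg cells. Hist1h1c (RefSeq H1f2) had 442, 242, 357 and 269 against 68.9, 59.9, 89.1 and 61.6 in CD8 cells, and 191, 174, 188 and 177 against 52.8, 46.4, 63.2 and 51.9 in CD4 conventional cells. Cells that were not cycling thus held Hist1h1c at a level that did not differ much between libraries, and few Hist1h1b UMIs. Its log2 fold changes were 2.22 (SE 0.11, adjusted p = 9.9e-08), 1.77 (SE 0.06, adjusted p = 5.3e-12) and 1.96 (SE 0.14, adjusted p = 3.0e-07). The other main H1 genes lay between, Hist1h1a at 5.79, 5.21 and 6.14, Hist1h1d at 4.72, 4.23 and 4.34 and Hist1h1e at 3.57, 3.10 and 3.03. The promoters of Hist1h1b and Hist1h1c printed above share the AAACACA letters and differ in the number of CCAAT motifs.

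Hist1h4d and Hist1h4n bracket the H4 genes printed above. Hist1h4d, the H4 gene with most UMIs, had 833, 640, 932 and 204 CPM in cycling CD8 cells against 47.2, 56.0, 90.2 and 20.9, and 369, 357, 455 and 136 against 31.7, 43.0, 61.7 and 18.8 in CD4 conventional cells. Replicate 4 was lowest in all 4 of these groups. The gene rose by 3.61, 3.09 and 3.34 in CD8, CD4 conventional and Treg cells. Hist1h4n had 108, 78.9, 97.8 and 50.8 against 46.6, 49.4, 54.3 and 48.0 in CD8 cells, and 75.9, 124, 57.9 and 48.0 against 49, 49.7, 53.3 and 45.2 in CD4 conventional cells. It rose by 0.75 (SE 0.18, adjusted p = 0.0113) in CD8 cells and by 0.80 (SE 0.21, adjusted p = 0.0104) in Treg, while its 0.55 in CD4 conventional cells did not pass. Hist1h4i rose by 0.67 (SE 0.19, adjusted p = 0.00748), 0.67 (SE 0.14, adjusted p = 0.00107) and 1.27. Hist1h4i and Hist1h4n had the smallest changes of the 54 members called in CD8 cells.

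H2B and H3 had genes of each kind. Hist1h2bk had 147, 62.9, 119 and 63.8 CPM in cycling CD8 cells against 1.65, 0.552, 1.57 and 0.565, a log2 fold change of 6.45. Hist2h2bb had 175, 128, 132 and 83.5 against 17.1, 22.6, 17.7 and 17.5, a change of 2.81. Hist2h2be, tested in CD4 conventional cells alone, had 3.84, 1.83, 2.23 and 2.56 against 2.54, 2.47, 3.61 and 3.01, which overlapped, with a fitted change of -0.13 that did not pass. Of H3, Hist1h3b had 119, 167, 177 and 120 in cycling CD8 cells and 0.735, 0, 4.71 and 0.565 in the others, and Hist1h3i 136, 112, 122 and 80 against 3.12, 4.96, 8.08 and 3.67.

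Genes that work with the histones were counted beside the members. A list of histone variants, most of them built into chromatin outside replication, also held Hist3h2a and Hist3h2ba, whose symbols fall outside the members' rule. Of this list, 7 of 10 tested were higher in cycling CD8 cells (median log2 fold change 0.87), 9 of 10 in CD4 conventional cells (0.75) and 9 of 9 in Treg (0.67). Cenpa, the H3 variant of centromeres, rose by 3.14, 2.80 and 2.46, H2afx, the variant phosphorylated at DNA breaks, by 2.83, 2.81 and 3.20, and H2afz by 2.40, 2.37 and 2.07. These changes were smaller than the members' medians. Of 24 histone chaperones and assembly factors, 19 were higher and 2 lower in cycling CD8 cells (median 1.13), with 18 and 1 of 24 in CD4 conventional cells (1.13) and 18 and 1 of 23 in Treg (1.18). Chaf1a, the large subunit of the CAF-1 complex that places new H3 and H4 on replicated DNA, rose by 4.48, 5.26 and 4.74, and Asf1b, which hands H3 and H4 to it, by 4.66, 4.39 and 4.49.

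The genes of histone transcription and mRNA processing had smaller medians. Of those tested, 15 of 26 were higher and 2 lower in cycling CD8 cells (median 0.51), 16 and 1 of 25 in CD4 conventional cells (0.50) and 14 of 25 were higher in Treg (0.48). Slbp, whose protein binds the stem-loop, rose by 1.98, 1.93 and 1.80. The cyclin E genes, whose kinase activates the histone gene coactivator NPAT, rose more: Ccne2 by 4.46, 3.24 and 3.91 and Ccne1 by 2.60, 2.97 and 4.11. Their partner Cdk2 rose by 2.04, 1.74 and 1.80, close to Slbp. In each comparison the share of the list called higher was above that of all genes tested, given above.

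The level of histone mRNA did not climb evenly with the count of cycling genes. T cells without a UMI of the 5 cycling genes had 4.94, 4.81, 6.51 and 4.27 histone UMIs per 10000 in replicates 1 to 4, and those with 1 had 4.73, 4.66, 7.52 and 4.39. With 2 UMIs the values were 5.41, 5.69, 10.4 and 5.17, and with 3 or 4 they were 7.24, 5.47, 13.3 and 6.28. With 5 to 9 they were 7.37, 9.21, 21.9 and 22.3, and with 10 or more 118, 90.7, 129 and 68.5. Most of the difference thus lay in the last class, of 225, 169, 267 and 333 barcodes, and in replicates 1 and 2 the classes up to 9 UMIs stayed within 10 histone UMIs per 10000.

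Barcodes were also split by phase, over lists of 26 S genes (such as Mcm5, Pcna and Tyms, of the replication machinery) and 28 G2M genes. Of the 4185 T cells with at least 5 UMIs of these genes, 2518 leaned to S (at least 0.75 of them from the S list), 309 to G2M (at most 0.25) and 1358 were mixed. The lean is a range and not a cell type: 1186 barcodes lay between 0.65 and 0.85 and 339 between 0.15 and 0.35. Most S-leaning barcodes were not cycling by the rule above, with 80 of 680, 62 of 556, 109 of 692 and 130 of 590 cycling in replicates 1 to 4.

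Histone levels were low in S-leaning barcodes and high in the mixed and G2M-leaning ones. S-leaning barcodes had 9.92, 6.92, 12.6 and 7.81 histone UMIs per 10000. Those of them not cycling had 4.78, 4.48, 6.64 and 4.00, near the 4.93, 4.88, 6.46 and 4.35 of barcodes with few phase UMIs. S-leaning cycling barcodes had 27.0, 15.8, 27.3 and 13.8. Mixed cycling barcodes, which hold UMIs of both lists, had 111, 80.6, 126 and 72.0, and G2M-leaning barcodes 103, 105, 108 and 64.9. Mixed and G2M-leaning barcodes overlapped in level, and each library's S-leaning cycling barcodes lay below both.

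**Figure D3:**
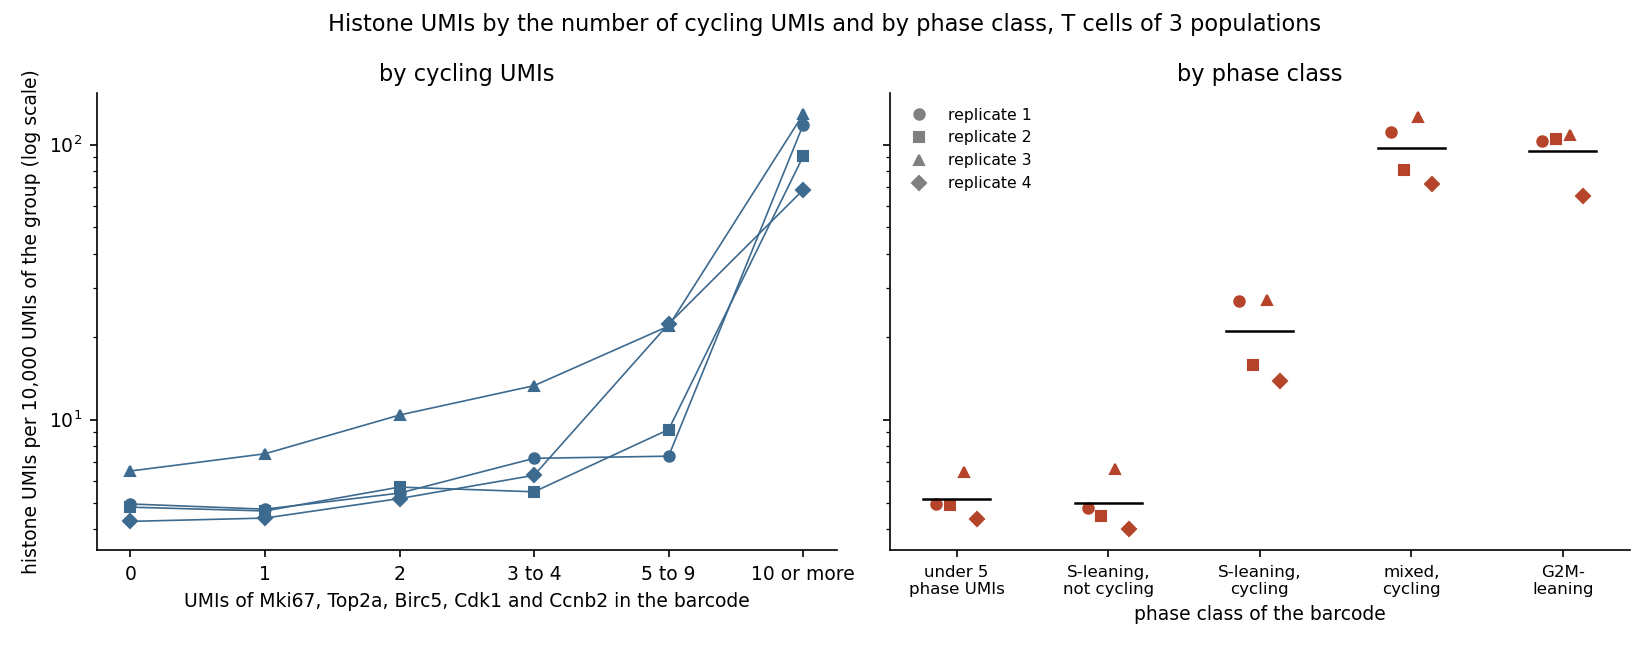
Histone UMIs per 10000 (log axis) in T cells, left by the number of UMIs of the 5 cycling genes in a barcode and right by phase class. Points are the 4 libraries and bars their means. The level stays under 25 up to 9 cycling UMIs and reaches 68.5 to 129 from 10, and on the right mixed and G2M-leaning barcodes stand above S-leaning ones.

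By gene, all 52 members tested were lower in S-leaning than in G2M-leaning barcodes, where 15.1% of the 10453 genes tested were called lower (27.8% in either direction). The median log2 fold change was -3.42, and the groups did not overlap for any of the 52 (29% of all genes did not). Hist1h2ap had 101, 73.6, 220 and 54.5 CPM in S-leaning and 2010, 1880, 2790 and 577 in G2M-leaning barcodes, and fell by 4.11. Hist1h2ab had 11.4, 5.35, 12.4 and 14.1 against 350, 423, 286 and 249, and fell by 4.98 (SE 0.40, adjusted p = 0.00434). Hist1h1b had 52.3, 20.1, 64.5 and 60.9 against 439, 515, 529 and 515, and fell by 3.50.

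Of the 5 members with the largest change 4 were H2A genes. Hist1h2af fell by 4.85 (SE 0.28, adjusted p = 4.3e-04), Hist1h2ae by 4.47, Hist1h2ah by 4.38 and the H2B gene Hist1h2bb by 4.37 (SE 0.19, adjusted p = 1.1e-10). Hist1h4d fell by 3.34 and Hist1h1e by 2.86. Smaller changes were those of Hist1h1c (-2.17), Hist1h1a (-2.15) and Hist1h3a (-1.34), the smallest of the 52, with 13.7, 11.9, 14.3 and 11.1 against 37.8, 38.4, 22 and 25.9 CPM. Since most S-leaning barcodes were not cycling, the split was also made within cycling barcodes, an alternative added after seeing the data. There 44 of 48 members were lower (12.3% of all genes tested called lower), with a median of -2.22.

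Genes of the variant list went the same way in 9 of 10 cases, with Cenpa at -4.13, H2afx at -3.90 and H2afv at -2.02. Hist3h2ba, on that list though a gene of a Hist cluster, was at -1.72. Of the assembly factors 3 of 24 were higher in S-leaning barcodes, where 12.7% of all genes were called higher (Ipo4, which imports H3 and H4, at 1.5, Chaf1b at 0.70 and Npm1 at 0.57), and 8 were lower (15.1% of all genes), led by Hjurp, the chaperone of Cenpa, at -2.78 and Asf1b at -1.88. Of the transcription and processing genes 1 of 26 was higher, Ccne2 at 1.80, and 7 were lower, led by Zfp473, a part of the U7 processing machinery, at -2.33. Slbp, at 0.19 (adjusted p = 0.215), did not pass. Within cycling barcodes the balance of these lists turned: 11 of 23 assembly factors were higher and 2 lower, and 7 of 25 transcription and processing genes were higher and 2 lower (15.7% of all genes were called higher there and 12.3% lower), while 8 of 10 variants were lower.

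Over all cells of a population, mean histone levels were 45.4 ± 17.3 UMIs per 10000 (SD, n = 4 libraries) in CD8 cells, 39.5 ± 16.5 in Treg and 16 ± 1.88 in CD4 conventional cells. Treg had 60.4, 32.5, 43.3 and 21.7 in replicates 1 to 4 and CD8 cells 39.3, 33.1, 71.0 and 38.2, so neither was higher in every library and the higher CD8 mean rests on replicate 3. Cycling barcodes were 9.6%, 12.5%, 23.3% and 22.7% in CD8 cells of replicates 1 to 4, 21.7%, 21.7%, 17.6% and 16.7% in Treg, and 5.51%, 5.42%, 6.44% and 6.9% in CD4 conventional cells. In each library CD4 conventional cells had the lowest histone level and the lowest cycling share of the 3 populations.

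Against CD4 conventional cells, 50 of 59 members were higher in CD8 cells and none lower (22.5% of 11983 genes were called higher, 20.3% lower and 42.8% in either direction). Their median log2 fold change was 1.34, against 0.00 over all genes, and 42 did not overlap (36% of all genes). Hist1h1d, an H1 gene, had 214, 146, 300 and 285 CPM in CD8 cells against 64.0, 53.0, 66.8 and 76.2 in CD4 conventional cells, and rose by 1.87 (SE 0.11, adjusted p = 6.7e-05). Hist1h1b had 254, 149, 460 and 408 against 89.2, 70.2, 75.9 and 94.0, and rose by 1.89 (SE 0.28, adjusted p = 0.00705). Hist1h2ap had 645, 642, 1640 and 393 against 270, 270, 364 and 124, and rose by 1.64 (adjusted p = 0.0018). Its replicate 4 of CD8 cells lay above every CD4 conventional library by a small margin. Hist1h3b (1.94, SE 0.39, adjusted p = 0.0211), Hist1h2af (1.79) and Hist1h2ad (1.77) completed the largest 5 with Hist1h1b and Hist1h1d, and Hist1h4d (1.60), Hist1h1e (1.47) and Hist1h1c (1.17) rose as well.

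Treg against CD4 conventional cells gave 39 of 56 members higher (20.5% of 11567 genes called higher, 39.8% in either direction), with a median of 1.08 and 29 not overlapping (32.7% of all genes). Both comparisons use the same CD4 conventional sums. Hist1h2bk had 60.4, 51.8, 36.7 and 33.9 CPM in Treg and 11.4, 14.7, 13.6 and 10.3 in CD4 conventional cells, and rose by 1.81 (SE 0.14, adjusted p = 4.5e-07). Hist1h1b had 486, 172, 237 and 194 in Treg and rose by 1.56 (adjusted p = 0.0347). Hist1h2ag (1.57), Hist1h3c (1.55) and Hist1h1d (1.49) followed. Without replicate 3 the comparison called 22 of 56 members higher and 1 lower, against 18.5% and 17.1% of all genes.

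Between CD8 cells and Treg few members differed. The H4 genes Hist2h4, Hist4h4 and Hist1h4n and the H3 gene Hist1h3d were higher in CD8 cells, 4 of 56 against 8.61% of 10787 genes called higher (21.6% in either direction), so the members' share was below the background. The median was 0.27. Hist2h4 had 50.8, 32.7, 77.6 and 18.2 against 32.7, 22.8, 35.9 and 9.58 CPM, higher in CD8 cells of each library, and rose by 0.85 (SE 0.12, adjusted p = 0.00102). The others rose by 0.72 (Hist4h4), 0.58 (Hist1h3d) and 0.35 (Hist1h4n), and the 2 populations overlapped for all 4. The count rested on single libraries. Without replicate 1, 18 of 56 members were called higher, against 7.5% of all genes, so there the share was above the background. It was 2 of 58 without replicate 2 (5.03% of all genes), 2 of 55 without replicate 3 (8.49%) and 1 of 57 without replicate 4 (5.17%). With 1 cell taken per clonotype, 7 of 50 members were called and all were lower in CD8 cells, a share below the 18.7% of all genes called lower.

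Genes of the lists also differed between populations. In CD8 against CD4 conventional cells, 17 of 24 chaperones were higher, with Asf1b at 1.32, Chaf1a at 1.27, Dnajc9 at 1.2 and Chaf1b at 1.09, and 13 of 26 transcription and processing genes were higher and 3 lower. Slbp rose by 0.83 and Ccne1 by 1.39. Of 11 variants, 5 were higher, with H2afz at 0.93 and H2afx at 0.86. The linker variant H1f0, which is known from resting and differentiated cells, went the other way and fell by 2.41 (SE 0.17, adjusted p = 2.5e-04). H1f0 was also lower in CD8 cells than in Treg (-3.17, SE 0.24, adjusted p = 3.1e-04) and higher in Treg than in CD4 conventional cells (0.70). In Treg against CD4 conventional cells, 13 of 24 chaperones were higher and 3 lower, and Pou2af1, a coactivator of octamer-binding factors, fell by 0.93.

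Once cycling cells were left out, the populations were close. Mean levels of cells that were not cycling were 5.58, 5.02 and 5.07 histone UMIs per 10000 in CD8, CD4 conventional and Treg cells. In CD8 against CD4 conventional cells 6 of 44 members were then higher and 1 lower, against 15.6% of genes called higher and 16% lower, a share of calls below the 31.6% of all genes. The 6 were Hist1h1d (0.57), Hist1h4d (0.49), Hist2h2ac (0.47), Hist4h4 (0.44), Hist1h1c (0.42, SE 0.06, adjusted p = 1.3e-04) and Hist1h1e (0.35), and Hist2h2bb fell by 0.27 (adjusted p = 0.0478). In Treg against CD4 conventional cells 3 of 40 were higher (background 12.6%) and 4 lower (10.4%), with a median of -0.36.

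The 3 of 40 members called higher in Treg were H1 genes, and the 4 called lower were H2A, H2B and H3 genes. Neither share was above that of all genes (12.6% called higher and 10.4% lower). Hist1h1e had 73.3, 72.2, 120 and 102 CPM in Treg that were not cycling, 50.5, 50.2, 70.4 and 52.5 in CD4 conventional cells and 59.9, 61.5, 97.2 and 61.0 in CD8 cells. It rose by 0.62 in Treg against CD4 conventional cells (SE 0.09, adjusted p = 5.4e-05), with Hist1h1d (0.44) and Hist1h1c (0.34). Hist2h2ac, an H2A gene, had 3.3, 3.83, 5.6 and 7.46 in Treg, 11.0, 8.69, 13.9 and 8.94 in CD4 conventional and 16.5, 11.3, 16.8 and 12.1 in CD8 cells. Its Treg libraries lay below all libraries of the other populations, and it fell by 1.16 against CD4 conventional cells (SE 0.27, adjusted p = 0.00444). Hist2h2bb (-0.72), Hist1h2ae (-0.68) and Hist1h3e (-0.63) were the others that fell. Against Treg, CD8 cells that were not cycling had Hist2h2ac higher by 1.61, Hist4h4 by 0.71, Hist1h4d by 0.54 and Hist1h4n by 0.44, and Hist1h1e lower by a log2 change of -0.27, 5 of 31 members (30.2% of all genes called).

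Whether cycling goes with a larger histone difference in CD8 than in CD4 conventional cells was tested as an interaction. Of 59 members 3 were called, all larger in CD8 cells (1.69% of 11056 genes called higher, 2.58% lower and 4.27% in either direction), and 19 had an unadjusted p under 0.05, against 19.2% of all genes. The median difference of log2 fold changes was 0.53. Hist1h3e had 128, 121, 158 and 96.5 CPM in cycling CD8 cells against 13.6, 17.4, 21.3 and 12.7, and 83.8, 78.5, 83.7 and 57.5 against 22.6, 22.3, 19.8 and 16.8 in CD4 conventional cells, a difference of 1.06 (SE 0.14, adjusted p = 4.5e-04). Hist1h2bc had 83.0, 39.4, 91.5 and 45.3 against 5.51, 4.96, 6.51 and 5.37, and 35.7, 33.3, 51.3 and 30.7 against 8.36, 7.62, 7.54 and 7.17, a difference of 1.23 (SE 0.27, adjusted p = 0.0179). In cycling cells both genes were higher in CD8 cells of every library, and in the other cells Hist1h3e was lower there in 3 of 4 libraries and Hist1h2bc in 4 of 4. Hist1h2be had 77.5, 59.7, 82.2 and 34.8 against 5.51, 5.79, 8.98 and 3.95 in CD8 cells, and 46.3, 22.8, 33.4 and 20.8 against 5.37, 6.33, 6.83 and 4.07 in CD4 conventional cells, a difference of 0.91 (SE 0.24, adjusted p = 0.0439). By edgeR no member was called after thinning to 1500 UMIs or without the replicate as a block. At an unadjusted p under 0.05 there were 5 of 49 members after thinning (median 0.08), against 8.76% of all genes. Without the block there were 8 of 59, against 14.9%. DESeq2 called 5 of 59, against 4.81% of all genes. Of the lists, Hjurp (0.87) and the H3.3 gene H3f3b (0.33) had larger cycling differences in CD8 cells, and Pou2af1 (-0.97) and Cstf2t (-0.68) smaller ones.

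Cells of one clone share a receptor, and larger clones held more cycling cells and more histone mRNA in CD8 cells. A clonotype was a productive TRA and TRB pair read within a library. In CD8 cells of clonotypes of 1 cell, histone UMIs per 10000 were 13.9, 17.3, 27.1 and 9.61 in replicates 1 to 4, in those of 2 to 4 cells 84.9, 36.7, 43.0 and 35, and in those of 5 or more 94.3, 64.3, 106 and 58.1. Cycling barcodes were 4.09% to 6.13%, 17.8% to 30.2% and 31.9% to 53.1% of them. CD4 conventional cells had 14.1, 9.74, 14.1 and 7.74, then 38.9, 18.1, 38.3 and 18.2, then 23.3, 28.5, 26.6 and 29.2, with 2.69% to 4.06%, 6.88% to 14.4% and 13.5% to 19.4% cycling. Treg had 47.0, 23.3, 33.8 and 25.1, then 85.3, 42.4, 43.6 and 27.3, then 69.6, 35.6, 91.8 and 16.7, with 12.5% to 15.3%, 28.0% to 39.3% and 26.9% to 66.7% cycling. The single CD8 and CD4 conventional cells lay below the larger clones of the same population in every library. Single Treg lay below clones of 2 to 4 cells in every library, and below those of 5 or more in all but replicate 4. Across libraries the Treg levels overlapped.

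Within cells that were not cycling the clone sizes were close in the summed histone level, with means over the libraries of 5.26, 5.09 and 6.26 in CD8, 4.95, 4.88 and 4.19 in CD4 conventional and 4.98, 5.46 and 4.83 in Treg cells for 1, 2 to 4 and 5 or more. Families differed in these CD8 cells. H1 was 1.32 to 1.90 in single cells and 1.97 to 3.35 in clones of 5 or more, without overlap. H2B went the other way, with 0.515 to 0.622 and 0.344 to 0.488. Among cycling cells the means were 74.9, 105 and 104 in CD8, 57.8, 69.3 and 59.5 in CD4 conventional and 77.7, 74.5 and 73.8 in Treg cells.

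**Figure D4:**
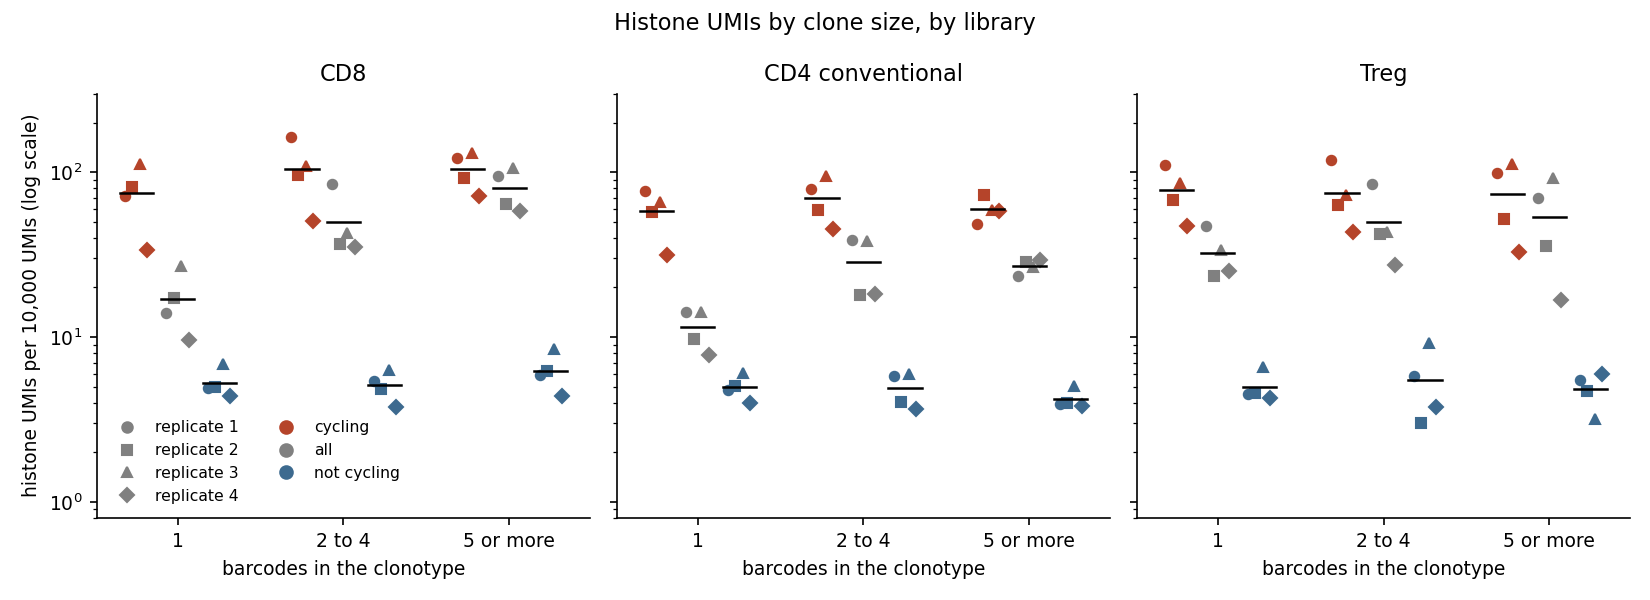
Histone UMIs per 10000 (log axis) by the number of barcodes in the clonotype, for cycling, all and not cycling cells of 3 populations. Points are the 4 libraries and bars their means. The level over all cells is lower in clonotypes of 1 cell in CD8 and CD4 conventional cells. The summed level of cycling and not cycling cells taken apart shows little order by clone size. Families are not shown apart.

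Cells of clonotypes of 2 or more were tested against single cells. In CD8 cells 46 of 50 members were higher (27.1% of 9661 genes called higher, 53.1% in either direction), with a median of 1.95. Hist1h1b had 34.4, 46.2, 136 and 51.9 CPM in single and 675, 304, 666 and 634 in expanded CD8 cells, and rose by 3.10 (SE 0.46, adjusted p = 0.0124). Hist1h2ab (2.80), Hist1h1d (2.80), Hist1h3i (2.73) and Hist1h1a (2.61) followed. In CD4 conventional cells 42 of 53 were higher and 1 lower, Hist1h4i at -0.42 (24.3% of 10799 genes called higher, 49% in either direction), with a median of 1.10. Hist1h1b there had 58.4, 25.5, 42.6 and 33.0 against 180, 113, 185 and 228 and rose by 2.03, after Hist1h2ah at 2.20 and before Hist1h1a (1.80), Hist1h1d (1.75) and Hist1h2bk (1.75).

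Treg differed less, with 11 of 46 members higher (5.57% of 8548 genes called higher, 11.7% in either direction) and a median of 0.55. The largest were H2B genes, Hist1h2bb (1.75), Hist1h2bm (1.43), Hist1h2bh (1.35) and Hist1h2be (1.33), and the H2A gene Hist1h2ag (1.32). Hist1h1b did not pass there, with 401, 69.6, 233 and 258 in single and 637, 205, 259 and 217 in expanded Treg, which overlapped. The count was 20 without replicate 4 (7.93% of all genes called higher). With 1 cell per clonotype, 16 of 45 members were called higher in CD8 cells (10.1% of all genes) and 7 of 44 in Treg (2.22%). Whether the clone-size differences differ between populations was not tested.

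Few members differed by clone size among cells that were not cycling. In CD8 cells Hist1h1d (0.93, adjusted p = 0.00104) and Hist1h1e (0.61, adjusted p = 7.3e-05) rose and Hist2h2bb fell by 1.18, 3 of 20 (26.4% of all genes called in either direction). Hist1h1d had 16.9, 19.4, 14.7 and 7.82 CPM in single and 29, 27.3, 37.0 and 26.7 in expanded cells, which did not overlap. In CD4 conventional cells 9 of 34 were lower in expanded cells and none higher (18.8% of genes called lower, 37.7% in either direction), among them Hist1h2bh (-1.80), Hist1h4i (-0.90), Hist1h2bj (-0.86), Hist1h4c (-0.78) and Hist1h4n (-0.69, adjusted p = 3.2e-05). Hist1h4n had 52.2, 59.4, 59.3 and 48.5 in single and 38.3, 38.6, 36.1 and 34.4 in expanded cells, again without overlap. In Treg 1 of 6 members was called (3.42% of genes called higher, 6.59% in either direction), Hist1h1e, which had 59.1, 65.1, 84.6 and 90.8 in single and 138, 108, 238 and 146 in expanded cells and rose by 1.00 (SE 0.18, adjusted p = 2.9e-04). Among cells not called cycling, Hist1h1e was thus called higher in expanded CD8 cells, in expanded Treg, and in Treg and CD8 cells against CD4 conventional cells. Except for expanded Treg, the members' share of calls in these comparisons was below that of all genes. In expanded CD8 cells not called cycling, 3 of 5 G2M genes tested were still higher and 1 lower.

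Barcodes with fewer than 20 CD11a counts and no contig were 175, 175, 2654 and 2074 in replicates 1 to 4, or 2.83%, 4.23%, 30.4% and 24.7% of the library. They were shallow, with a median of 1841, 1067, 1004 and 739.5 UMIs. Histone UMIs per 10000 were 7.91, 25, 83.9 and 55.4, so replicates 3 and 4 were above the CD4 conventional mean of 16 by a wide margin and replicate 1 was below it. Cycling barcodes numbered 0, 1, 629 and 262, and 0 of 175 allows a share of up to 1.71%. In replicate 2 the single cycling barcode held 849 of its 23466 UMIs in histone genes, or 362 per 10000. The level of 25 in replicate 2 rests largely on this barcode, and was 6.12 without it.

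Barcodes of this kind that were not cycling had 7.91, 6.12, 63.9 and 47.2, against 4.23 to 6.23 in CD4 conventional cells that were not cycling. At this depth the rule for cycling reads fewer UMIs per barcode, and the G2M list stood at 0.555, 0.765, 15.5 and 11.6 UMIs per 10000 in them against 0.675 to 0.796 in the CD4 conventional cells. Its part in the result was not tested. Among no-contig barcodes of replicate 3, the histone level was 85.1 with 0 to 4 CD11a counts, 59.6 with 15 to 19, 29.5 with 25 to 29, 14.4 with 50 to 99 and 26.2 with 100 or more, and in replicate 4 it was 58.2, 32.9, 23.6, 9.33 and 18.6. In replicate 1 it stayed between 3.95 and 14 over all classes.

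The make-up of the group differed between libraries. The 8 T cell markers, all detected, summed to 10.1, 11.1, 40.8 and 46.2 UMIs per 10000, against 51.1 to 56.9 in CD4 conventional cells. The 6 endocrine markers, all detected, summed to 0.0853, 329, 305 and 24.7, with the insulin gene Ins2 at 213 in replicate 2 and 169 in replicate 3, against at most 1.46 in CD4 conventional cells. The acinar and ductal markers, 5 of 6 detected with Krt19 at 0, summed to 190, 122, 9.46 and 7.46, and the erythroid markers to 256, 0, 0.0098 and 0. B cell markers (6 of 6) summed to 46.6, 40.8, 11.3 and 9.13, and myeloid markers (6 of 6) to 6.48, 45.5, 2.43 and 5.93. The libraries with high histone levels were thus the 2 with high T cell marker sums and many such barcodes. The part of these markers in the histone level was not tested.

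**Figure D5:**
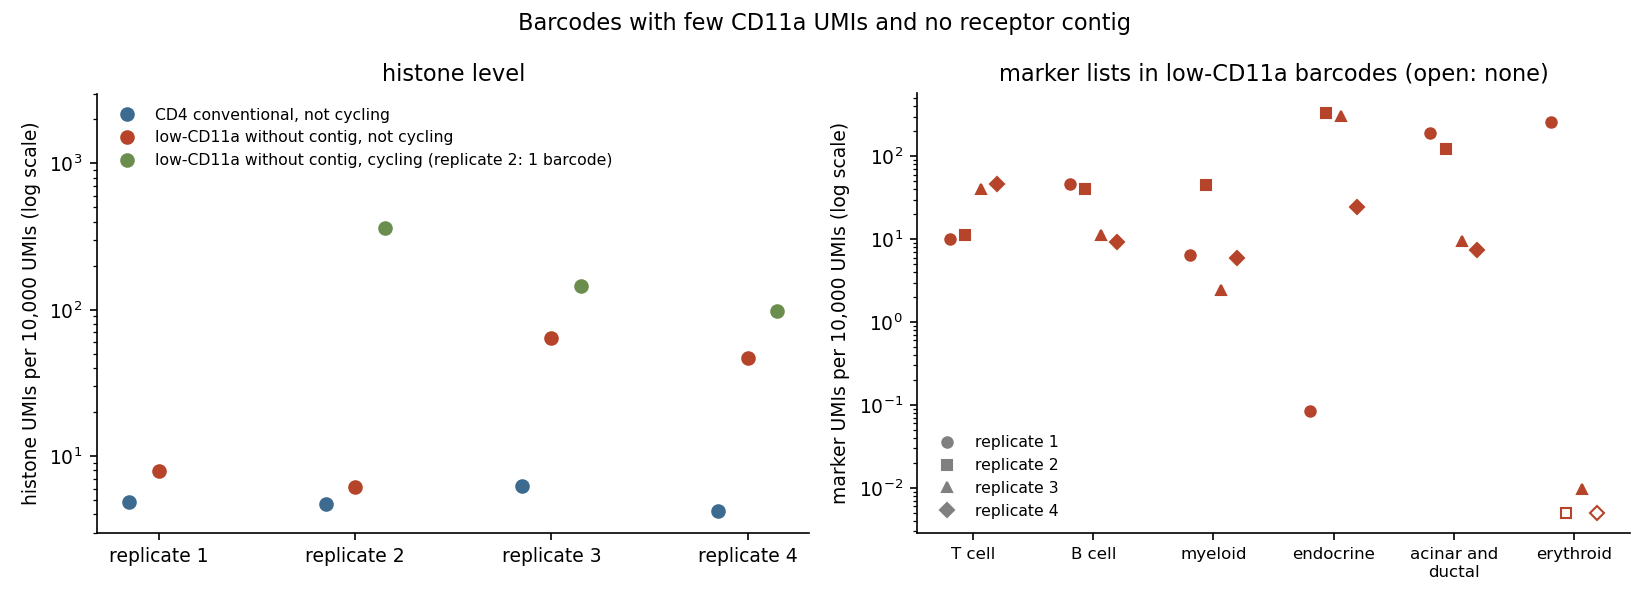
Left, histone UMIs per 10000 (log axis) by library in low-CD11a barcodes without contig, cycling and not, and in CD4 conventional cells that were not cycling. Right, summed UMIs per 10000 (log axis) of marker lists in the low-CD11a barcodes, with open points for none. Replicates 3 and 4 reach 63.9 and 47.2 without cycling, while replicates 1 and 2 stay under 10, and the marker lists differ between libraries.

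Against CD4 conventional cells 1 of 55 members was called in the 4 libraries, where 0.102% of 11739 genes were called higher (0.119% in either direction). It was Hist1h1c, with 145, 158, 252 and 223 CPM against 80.7, 70.7, 88.0 and 79.1, which did not overlap, and it rose by 1.31 (SE 0.12, adjusted p = 0.0262). The members' median was also 1.31, and 12 had an unadjusted p under 0.05, against 16.4% of all genes. By edgeR none was called when replicate 2, 3 or 4 was left out. At an unadjusted p under 0.05 there were 16 of 57, 3 of 55 and 3 of 55 members, against 12.6%, 14.6% and 12.4% of all genes. Without replicate 1, 6 of 57 members were called higher, against 0.267% of all genes. In replicates 3 and 4 alone, a choice added after seeing the data, 42 of 59 members were higher (6.12% of genes called higher), with a median of 2.12. Without cycling barcodes, likewise added after seeing the data, 7 of 47 were higher (1.65% of genes called higher), with a median of 2.30. Hist1h2ap had 61.9, 19.1, 662 and 151 CPM in the low-CD11a barcodes that were not cycling, and Hist1h4d 81.1, 52.6, 749 and 516. By family, all low-CD11a barcodes, cycling ones included, held 31.3% H1, 33.3% H2A, 7.65% H2B, 7.22% H3 and 20.5% H4 on average over the 4 libraries. In replicate 2 the single cycling barcode held most of these histone UMIs.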

How the data were processed

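The values analysed are raw UMI counts per gene and barcode, with antibody counts in the same matrices, as deposited by the authors. The matrices were written by Cell Ranger 4.0.0, per the file headers. The submitters' processing notes name mm10 and Seurat, with no role for either, and the handling of multi-mapping reads is not given in the sources. Contig tables of the T cell receptor libraries gave counts of UMIs per contig, per the file headers. The labels list antibody libraries apart, while their counts stand in the mRNA matrices. Barcodes were used as deposited, and no doublet caller was run. Barcodes with at least 1000 UMIs, at most 8% mitochondrial UMIs and at most 1 TRB chain were an alternative. Free RNA can put a Foxp3 or Cd8a UMI into other cells, so the populations are gates and not pure types.

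The members, lists, gates and tests were chosen with earlier results of these data known. UMIs were summed per library and group (at least 20 barcodes) and tested on all genes in edgeR 4.0.16 (R 4.3.3; filterByExpr, TMM, robust quasi-likelihood fit, Benjamini-Hochberg adjustment, calls under 0.05). The replicate was a block, because the groups compared come from the same library. The lowest correlation between residuals of the same library was -0.005 to 0.238, depending on the comparison. DESeq2 1.42.0, no filter, thinning, other gates, 1 cell per clonotype and leaving out each replicate were alternatives. Clonotypes were identical productive TRA and TRB CDR3 nucleotide sequences in cells with exactly 1 TRB and 1 or 2 TRA chains. On simulated counts the fit recovered 91% of 2-fold and 100% of 4-fold changes with 7 false calls for CD8 against CD4 conventional cells (12091 genes), and 93% and 100% with 15 for cycling CD8 cells (10379 genes). The simulation gave all genes the same fixed dispersion and raised a small set of them. These rates check the fit and are not its power or error rate in these data. Named genes were the 12 members with most UMIs, the up to 5 called members with the largest change in each direction, and the up to 4 called genes of each list with the largest change. Hist1h4n, Hist1h4i, Hist2h2be, Hist1h2bk, Hist2h2bb and a few others were also named for their share from cycling cells, after values were seen. A limit for a count of 0 is 3 counts of the total and covers counting error only.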

Additional observations from a re-analysis of the deposited data

Results flagged for a closer look

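In each of 60 groups of 4 libraries, the gap between the highest or lowest library and its neighbour was set against the range of the group. A library stood apart in 8 groups. Chance flags about 1 in 20 groups that are independent. These groups are not, since the total holds its families and each population its cycling and other cells. The 8 can therefore not be set against that rate. Replicate 3 was high in 6 of them. Its CD8 cells had 71.0 histone UMIs per 10000 (33.1 to 39.3 in the others) and 33.6 H2A UMIs (14.9 to 16.6). Its CD8 cells that were not cycling had 2.35 H1 UMIs (1.48 to 1.54), 0.606 H2B UMIs (0.487 to 0.505) and 0.739 H3 UMIs (0.454 to 0.477), and its Treg that were not cycling 7.02 histone UMIs (4.32 to 4.57). Replicate 4 was low in the other 2, with 4.51 H2A UMIs in CD4 conventional cells (6.99 to 7.26) and 18.2 in those that were cycling (30.9 to 33.1).

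The log2 difference between cycling and other cells was larger in CD8 than in CD4 conventional cells, by edgeR's interaction test, for Hist1h2bc (1.23, SE 0.27, adjusted p = 0.0179), Hist1h2be (0.91, SE 0.24, adjusted p = 0.0439) and Hist1h3e (1.06, SE 0.14, adjusted p = 4.5e-04).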

How the results depend on the processing

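Of 150 alternative counts of members called, 118 stayed within 1.5 times of the reported count. Of 1572 alternative values for single genes, 1369 kept their direction and side of the threshold, 186 no longer passed and 17 changed sign. The cause of a change was not tested. Leaving out cells or libraries also changes the number of genes tested, in either direction. For CD8 against CD4 conventional cells it was 11983, against 12027 without replicate 1 and 11361 without cycling cells.

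Leaving out 1 library gave 38 to 48 calls for CD8 against CD4 conventional cells, 23 (without replicate 3) to 36 for Treg against CD4 conventional cells, 1 to 18 for CD8 against Treg, 52 to 56, 54 to 57 and 47 to 50 for cycling in CD8, CD4 conventional and Treg cells, 2 to 4 for the interaction, 48 to 52 for S against G2M, 41 to 46, 36 to 38 and 8 to 20 for clone size in CD8, CD4 conventional and Treg cells, and 0 to 6 for low-CD11a barcodes.

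Samples with the same number come from the same library and are paired. With no replicate block the counts were 0 for CD8 against Treg (2 of 56 at an unadjusted p under 0.05, against 31.5% of all genes), 0 for the interaction and 3 for clone size in Treg, and 45, 33, 54, 53, 47, 52, 42, 32 and 1 for the others (CD8 and Treg against CD4 conventional cells, cycling in CD8, CD4 conventional and Treg cells, S against G2M, clone size in CD8 and CD4 conventional cells, low-CD11a). Of all genes, 21.0%, 1.45% and 8.46% were called for CD8 against Treg, the interaction and clone size in Treg. For the others the shares were 37.1%, 32.9%, 61.5%, 57.9%, 48.5%, 24.9%, 50.5%, 44.1% and 0.886%, in that order.

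Without cycling cells, 7 of 44 members were called for CD8 and 7 of 40 for Treg against CD4 conventional cells (31.6% and 23.0% of all genes). For clone size in CD8, CD4 conventional and Treg cells the counts were 3 of 20, 9 of 34 and 1 of 6 (26.4%, 37.7% and 6.59%). All 9 were lower in expanded cells. For low-CD11a barcodes 7 of 47 were called (2.98%), and 42 of 59 in replicates 3 and 4 only (11.3%). With 1 cell per clonotype they were 7 for CD8 against Treg and 16 and 7 for clone size in CD8 cells and Treg. Clones of 5 or more cells gave 27 in CD4 conventional cells and 1 in Treg (3 libraries). DESeq2 gave 6 of 55 for low-CD11a barcodes (7.4% of all genes), 5 of 59 for the interaction (4.81%) and 7 of 46 for clone size in Treg (3.42%). No filter gave 21 of 62 for clone size in Treg (8.42%). CD4 gates of 10 and 80 gave 2 of 55 for CD8 against Treg (22.3%). Thinning to 1500 UMIs gave 26 of 26 tested for cycling in Treg (21.1%) and 0 of 49 for the interaction (0.26%).

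Single genes that changed sign without cycling cells had these log2 values: Hist1h2ae -0.01 in CD8 against CD4 conventional cells, and Hist1h1a -0.71, Hist1h1b -0.11, Hist1h2ad -0.21 and Hist1h4d -0.05 in Treg against CD4 conventional cells. By clone size they were Hist1h1a -0.10, Hist1h2ae -0.35 and Hist1h2ap -0.51 in CD8 cells, and Hist1h1a -0.56, Hist1h1c -0.03, Hist1h2ad -0.60, Hist1h2ao -0.45 and Hist1h2ap -0.61 in CD4 conventional cells, the last of which was called lower (adjusted p = 0.00216). With 1 cell per clonotype Hist1h3d was at -0.20 and Hist4h4 at -0.14 in CD8 against Treg, and Hist1h2af at -0.08 by clone size in Treg. In Treg clones of 5 or more cells Hist1h2ae was at -0.41.

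Thinning gives every cell the same weight and lowered the family means per 10000 by more than 1 SD in CD8, CD4 conventional and Treg cells, to 5.58, 1.87 and 4.95 for H1, 8.24, 2.32 and 7.42 for H2A, 1.57, 0.885 and 1.61 for H2B and 1.71, 0.793 and 1.39 for H3, while H4 stayed within its spread. Members with few UMIs (3 with fewer than 100 over all barcodes) cannot be compared at this depth.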
